A study of Mus musculus with 6 samples.

Results

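Open chromatin was examined around 47 genes that encode ligands and receptors of axon guidance in mouse neural stem/progenitor cells (NSPCs). The members are the ATAC-seq intervals whose strongest summit lay nearest to a transcription start site (TSS) of one of these genes, among all protein-coding genes, at most 50 kb away. Intervals were assigned to genes by position only, but the gene list was chosen with earlier results of these data known. In the list from parent NSPCs, 237 of 82885 intervals were assigned to these genes, and in the list from NSPCs without the *Sox2* enhancer cluster SRR2–18, 297 of 107480 were. The parent intervals fell at 45 of the 47 genes and the ΔSRR2–18 intervals at all 47.

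Growing axons read guidance cues through receptors on their growth cones. Slit proteins are secreted and repel axons through Robo receptors. Netrins attract axons through DCC and repel them through UNC5 receptors. Class 3 semaphorins are secreted ligands that act on plexins and neuropilins, and ephrins are membrane-bound ligands of the Eph receptor tyrosine kinases. In the neural tube these cues also set up boundaries and guide the migration of progenitors, and many of them act in blood vessels and other tissues.

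ATAC-seq uses a transposase that inserts sequencing adapters where DNA is accessible. The NSPCs were derived from embryonic stem cells of a 129S1/Cast F1 hybrid in which mCherry tags *Sox2* on the 129 allele, and both groups carry this tag. The parent group is Clone 5B with no deletion (3 cultures), and the ΔSRR2–18 group is Clone 47D, in which Cas9 removed SRR2–18 from both alleles (3 cultures). All cultures grew in N2B27 medium with EGF and bFGF on poly-d-lysine and laminin, and the labels give 50 to 60 M reads for each. Each genotype is 1 clone, so effects of the deletion and differences between clones cannot be told apart. The deposited lists pool the cultures of a genotype, so the values below come without a spread over replicates, and the genotypes were compared by size and rank with no test.

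Summit reads were recovered from values that the peak caller gave. They were divided by the genome-wide background of the list, 38.8 reads in the parent and 19.7 reads in the ΔSRR2–18 list, and this ratio is called the level. The parent list thus came from the deeper pool of reads. A rank given as a top percentage is the place of an interval by summit reads among all intervals of its own list, so that a small value is a strong interval. It depends on how many intervals the list holds, and the ΔSRR2–18 list is the longer. Between the Cas9 cut sites of the deletion, the parent list held 4 intervals and the ΔSRR2–18 list held 0. All 8 NSPC marker genes had a promoter interval in both lists (within 1 kb of a TSS), but all 8 had a lower level in ΔSRR2–18 NSPCs, and 6 a lower rank. Lower levels were common at all promoters: over 12602 overlapping pairs of promoter intervals the median log2 ratio of ΔSRR2–18 to parent level was −0.46. The upper quartile was −0.18, and 40.1% of these pairs ranked higher in the ΔSRR2–18 list. The widest drops in level were at *Fabp7* (94.3 in parent and 22.6 in ΔSRR2–18 NSPCs), *Sox1* (51.6 and 12.1) and *Msi1* (47.2 and 18.4). At *Vim* (104.6 and 101.9) and *Hes1* (100.0 and 90.2) the levels were close, and both ranked higher in the ΔSRR2–18 list. *Nes* had 9 intervals and 3, *Vim* 4 and 5 and *Sox9* 7 and 8, and all 8 genes together had 66 and 53. None of the 3 microglial or the 3 pluripotency markers had a promoter interval in either list.

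The sequences behind the classes compared below are shown first, as 75 bases on each side of a summit on the forward strand of mm10. An interval is called shared when it overlaps an interval of the other list by at least 1 bp, and otherwise parent-only or deletion-only. Capitals mark exact matches on either strand to SOX (AACAATG or AACAAAG), AP-1 (TGACTCA or TGAGTCA), HOX-PBX (TGATTNAT), CDX and posterior HOX (TTTATNG), TEAD (ACATTCC), ZIC (CAGCAGG), NFI (CTTGGCA) or POU (ATGCAAAT). The sequence is the reference of the C57BL/6J strain, so bases that differ in the 129 or Cast allele are not shown. The 3 parent-only intervals with the highest fold enrichment among those with a SOX or AP-1 match and no UTR lay in introns of *Robo1* and *Nrp1* and upstream of *Epha4*, with fold enrichments of 13.5, 10.6 and 8.58. All 3 held a SOX match, and the *Robo1* window an AP-1 match as well. A match was required for this choice, so that the windows show what matches look like and are no measure of how common they are.
*Robo1*, chr16:72688562-72688712: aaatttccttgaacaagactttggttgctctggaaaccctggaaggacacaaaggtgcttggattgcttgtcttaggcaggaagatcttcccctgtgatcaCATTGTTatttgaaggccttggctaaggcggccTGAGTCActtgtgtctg
*Nrp1*, chr8:128383287-128383437: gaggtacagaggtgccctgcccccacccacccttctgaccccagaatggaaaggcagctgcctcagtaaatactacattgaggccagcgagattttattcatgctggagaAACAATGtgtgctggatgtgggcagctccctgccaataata
*Epha4*, chr1:77539957-77540107: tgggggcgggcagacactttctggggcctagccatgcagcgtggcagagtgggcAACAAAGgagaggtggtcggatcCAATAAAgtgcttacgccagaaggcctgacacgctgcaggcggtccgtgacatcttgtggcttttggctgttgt

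The deletion-only intervals chosen by the same rule lay upstream of *Nrp2* and, both of the remaining ones, upstream of the nearest *Sema3a* start site within an intron. Their fold enrichments were 27.8, 26.5 and 25.5, and the required match was AP-1 in each.
*Nrp2*, chr1:62678667-62678817: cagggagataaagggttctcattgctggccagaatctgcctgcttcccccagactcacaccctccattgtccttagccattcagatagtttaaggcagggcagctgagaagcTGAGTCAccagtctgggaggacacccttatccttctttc
*Sema3a*, chr5:13365184-13365334: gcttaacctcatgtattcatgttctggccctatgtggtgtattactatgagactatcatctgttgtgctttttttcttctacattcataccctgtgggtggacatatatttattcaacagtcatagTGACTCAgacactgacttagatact
*Sema3a*, chr5:13355015-13355165: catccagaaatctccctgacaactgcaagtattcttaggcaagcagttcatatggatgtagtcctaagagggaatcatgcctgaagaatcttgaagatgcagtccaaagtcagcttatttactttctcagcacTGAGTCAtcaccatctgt

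The shared intervals with the most parent reads lay at the *Ephb3* promoter and upstream of *Sema3b*. Their windows were GC-rich, at 69.5% and 75.5%, and none of the motifs matched in them.
*Ephb3*, chr16:21204589-21204739: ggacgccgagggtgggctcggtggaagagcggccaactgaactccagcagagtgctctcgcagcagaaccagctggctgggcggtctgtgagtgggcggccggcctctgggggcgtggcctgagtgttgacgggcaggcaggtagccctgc
*Sema3b*, chr9:107612791-107612941: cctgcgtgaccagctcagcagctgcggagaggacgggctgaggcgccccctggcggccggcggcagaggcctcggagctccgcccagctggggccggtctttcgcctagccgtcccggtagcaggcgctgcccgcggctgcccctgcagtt

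Because *Slit2* and *Slit3* stood out once their values were seen, the strongest deletion-only windows of *Slit3* (35804 bp and 114 bp upstream of its TSS) and of *Slit2* (44360 bp upstream and 31199 bp downstream) are added. The distal *Slit3* window holds a CDX and posterior HOX match, the *Slit3* promoter window is GC-rich (71.5%) without a match, the upstream *Slit2* window holds an AP-1 match, and the intronic one holds SOX and HOX-PBX matches and no AP-1 match.
*Slit3*, chr11:35085345-35085495: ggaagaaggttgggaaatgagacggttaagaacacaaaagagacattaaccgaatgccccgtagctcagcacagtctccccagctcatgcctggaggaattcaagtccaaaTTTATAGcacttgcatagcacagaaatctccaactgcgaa
*Slit3*, chr11:35121035-35121185: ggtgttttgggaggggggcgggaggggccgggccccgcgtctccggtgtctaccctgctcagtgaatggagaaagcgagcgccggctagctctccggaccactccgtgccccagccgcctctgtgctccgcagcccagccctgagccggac
*Slit2*, chr5:47938703-47938853: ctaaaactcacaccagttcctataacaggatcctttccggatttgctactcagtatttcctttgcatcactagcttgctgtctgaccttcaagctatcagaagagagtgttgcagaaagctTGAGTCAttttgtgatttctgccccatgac
*Slit2*, chr5:48014278-48014428: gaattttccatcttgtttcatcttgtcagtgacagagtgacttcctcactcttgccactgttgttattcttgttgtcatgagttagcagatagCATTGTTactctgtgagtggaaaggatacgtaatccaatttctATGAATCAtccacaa

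Of the 237 parent intervals at axon guidance genes, 134 were shared and 103 were parent-only, or 43.5% (95% Wilson interval, 37.3–49.8). Among all parent intervals within 50 kb of a protein-coding TSS, 45.0% were parent-only, a share inside that interval. Of the 297 ΔSRR2–18 intervals, 134 were shared and 163 were deletion-only, or 54.9% (49.2–60.4), against 53.0% of all. These intervals cover counting error only. Over the complete lists, distal intervals included, 52.3% and 63.1% had no overlap. The share at axon guidance genes thus lay close to the background in both lists, and the genes differed widely among themselves. Deletion-only intervals outnumbered parent-only ones at 28 genes, parent-only ones were more numerous at 16, and the counts were equal at 3. Over all 21911 protein-coding genes, the first order held at 7958 and the second at 4808. The excess was also counted at equal list length. With the ΔSRR2–18 list cut to the length of the parent list by fold enrichment, 145 member intervals were parent-only and 109 deletion-only, and deletion-only intervals were more numerous at 12 genes and parent-only ones at 27. Cut by −log10 p, the counts were 121 and 115 intervals, and 18 and 24 genes. Under such a cut of the ΔSRR2–18 list alone, the parent-only count can only rise and the deletion-only count can only fall. The direction of the change was thus fixed in advance, and the same counts over all genes were not made.

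**Figure D1:**
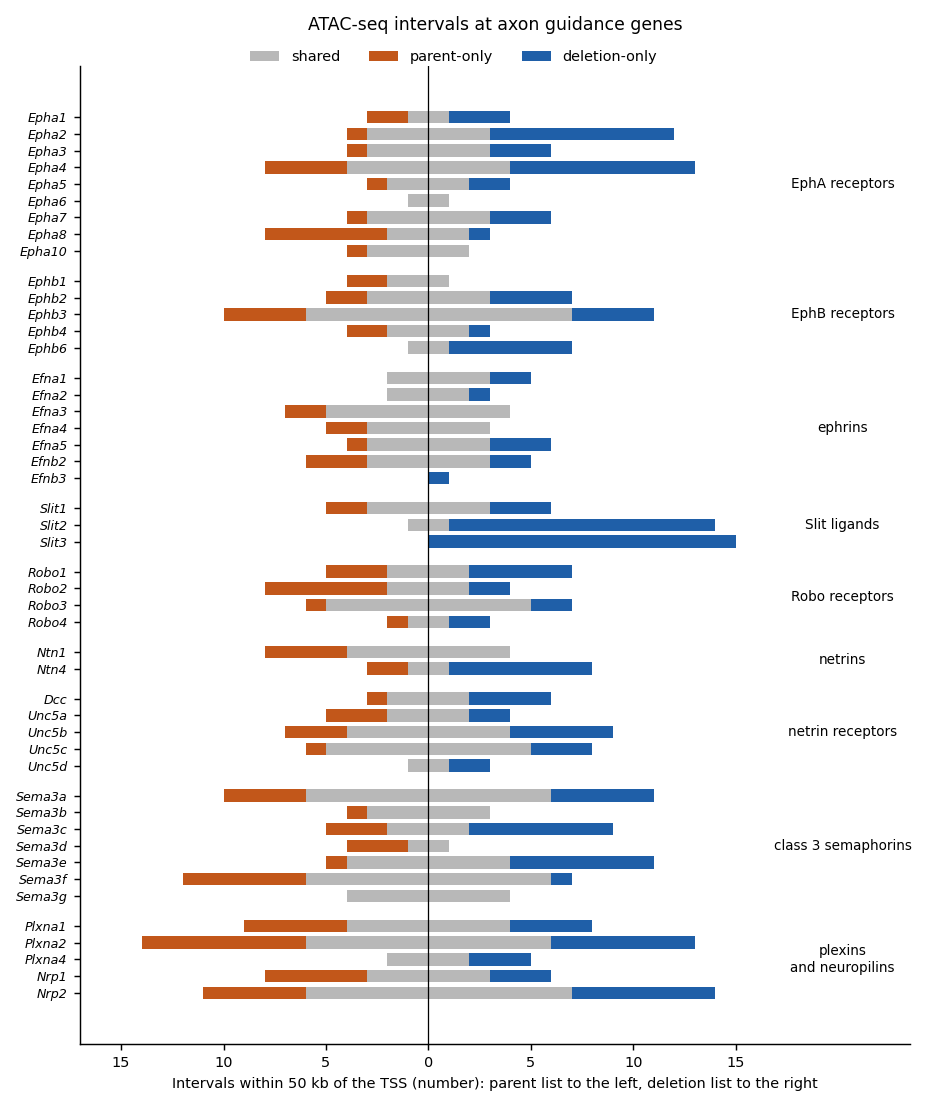
Number of ATAC-seq intervals within 50 kb of the TSS for each of the 47 genes, grouped by family, with the parent list to the left and the ΔSRR2–18 (deletion) list to the right of the zero line. Grey marks shared, orange parent-only and blue deletion-only intervals. *Slit3* has 15 intervals to the right and 0 to the left.

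Most genotype-specific intervals lay away from promoters. Over all genes, too, promoters held only 4.97% of parent-only and 5.98% of deletion-only intervals. Of the 44 parent intervals at member promoters 0 were parent-only (upper Wilson bound, 8.03%), against 8.91% of all parent promoter intervals, while 7 of the 50 ΔSRR2–18 promoter intervals (14.0%, 6.95–26.2) were deletion-only, against 14.0% of all. Of the 163 deletion-only intervals, 85 lay in introns and 67 between genes, and the intergenic share of 41.1% (33.8–48.8) compares with 32.4% over all genes. Of the 103 parent-only intervals, 67 lay in introns and 31 between genes. The median distance to the TSS was 21021 bp for deletion-only and 17774 bp for parent-only intervals, against 16022 bp and 16284 bp over all genes. Median levels were 17.2 in deletion-only and 11.2 in parent-only intervals, and 31.4 in the shared intervals of the parent list. Over all genes these medians stood in the same order, at 15.5, 12.8 and 36.6. In the parent list, 10% of intervals had a level under 5.84, and 157 of the 163 deletion-only intervals were above this value. Of the parent-only intervals, 79 of 103 were above the corresponding ΔSRR2–18 value of 7.12. Because 7.12 is above 5.84, most of the ΔSRR2–18 list passes the parent value whatever the class, so these counts cannot be compared with each other. The same counts over all intervals of each class were not made.

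The Slit ligands had the highest deletion-only share of the 9 families. They had 6 parent and 35 ΔSRR2–18 intervals, and 31 of the latter were deletion-only (88.6%, 74.0–95.5). Without *Slit2* and *Slit3*, 135 of the remaining 268 ΔSRR2–18 member intervals were deletion-only, or 50.4% (44.4–56.3). *Slit3* (chromosome 11, 35121224 to 35708507, forward strand) had 0 intervals within 50 kb of its TSS in the parent list and 15 in the ΔSRR2–18 list. The strongest lay 35804 bp upstream (chr11:35084933-35085902) with 1832 summit reads, a level of 93.2 and a rank in the top 4.45%. The *Slit3* promoter interval (chr11:35120829-35121810) had its summit 114 bp before the TSS, with 1562 reads, a level of 79.5 and a rank in the top 6.68%. Another strong interval lay 46179 bp into the gene with a level of 64.0, and the levels of all 15 ran from 8.29 to 93.2. In the less strict optimal list of the parent, a single *Slit3* interval appeared, 1642 bp upstream of the TSS, with 161 reads and a level of 4.14 and a rank of 96.8%, near the weak end of that list. The gene is 587284 bp long, and parent chromatin was not closed along all of it: over the whole gene body the parent list held 16 intervals, 7 of them parent-only, and the ΔSRR2–18 list 40, with 31 deletion-only.

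*Slit2* (chromosome 5, 47983138 to 48307733) had its promoter interval in both lists, with a level of 52.3 in parent and 47.4 in ΔSRR2–18 NSPCs. That promoter was the only parent interval within 50 kb. The ΔSRR2–18 list added 13 deletion-only intervals, 5 of them upstream beyond the promoter distance, 7 downstream of it and 1 at 984 bp before the TSS, with levels from 5.60 to 40.0. At *Slit1*, 3 of 5 parent and 3 of 6 ΔSRR2–18 intervals were shared. Its deletion-only promoter interval was weak (274 reads, level 13.9), and the parent list held a parent-only interval of level 39.7 whose summit lay 2580 bp upstream. Of all 21911 genes, 21 had as large a difference between deletion-only and parent-only counts as *Slit3* and 36 as large a one as *Slit2*. Promoter intervals of markers of other cell types differed too: 2 of 3 mesenchymal, 1 of 4 endothelial and 1 of 3 epithelial markers had one in the parent list, against 3, 2 and 2 in the ΔSRR2–18 list (*Pdgfrb*, *Tek* and *Epcam* were the additions, at levels of 23.4, 19.9 and 16.7). Among all protein-coding genes, 6.53% had a promoter interval in the ΔSRR2–18 list alone and 3.39% in the parent list alone. Over all shared promoter intervals the median log2 ratio of levels was −0.46. The promoter level was 42.7 in parent and 85.5 in ΔSRR2–18 NSPCs at *Col1a1* (mesenchymal) and 4.07 and 19.5 at *Cdh1* (epithelial), while at *Twist1* it was 73.4 and 54.5 and at *Kdr* 48.1 and 36.7. Of 6 neuronal markers, 4 and 5 had a promoter interval, and of 5 astrocyte and oligodendrocyte markers 1 and 1. The part of these markers, and of the lower NSPC marker levels, in the results at axon guidance genes was not tested.

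**Figure D2:**
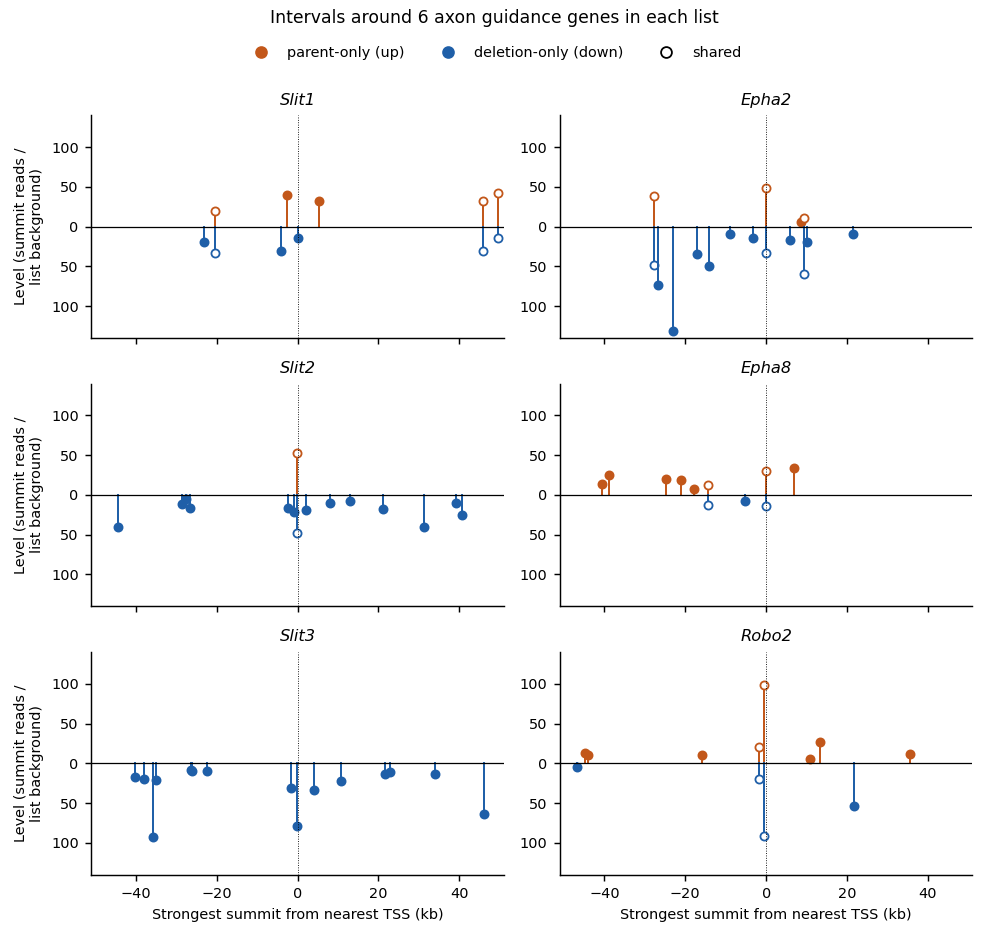
Level of each interval (vertical axis, summit reads over list background) against the distance of its strongest summit from the nearest TSS (horizontal axis, kb; negative is upstream) for *Slit1*, *Slit2*, *Slit3*, *Epha2*, *Epha8* and *Robo2*. Parent intervals point up and ΔSRR2–18 intervals point down, filled symbols are specific to that list and open symbols are shared. *Slit3* has no upward line, and *Epha2* has a downward one of level 131.8 upstream of the gene.

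The Robo receptors had 21 intervals in each list, of which 11 were specific in each. *Robo2* had the opposite balance to the Slits, with 6 parent-only and 2 deletion-only intervals. Its parent-only levels ran from 4.92 to 26.5, while the stronger of its deletion-only intervals, 21711 bp into the gene, had a level of 54.2 and a fold enrichment of 31.0. The *Robo2* promoter was alike in rank, in the top 8.28% of the parent and the top 4.68% of the ΔSRR2–18 list. *Robo1* had 3 parent-only and 5 deletion-only intervals and *Robo3*, a divergent member that modulates midline crossing, had 1 and 2. *Robo4*, the family member of blood vessels, had no promoter interval in either list and no interval above a level of 13.2.

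The netrins split. *Ntn1*, the classical floor plate cue, had 4 parent-only and 0 deletion-only intervals, and its strongest promoter interval had a level of 90.4 in parent and 30.8 in ΔSRR2–18 NSPCs. *Ntn4*, a netrin of basement membranes, had 2 parent-only and 7 deletion-only intervals, the strongest 20438 bp upstream of the nearest TSS at a level of 80.5. Among netrin receptors, deletion-only intervals were more numerous at *Dcc* (4 against 1), *Unc5b* (5 against 3), *Unc5c* (3 against 1) and *Unc5d* (2 against 0), and parent-only ones at *Unc5a* (3 against 2). The *Unc5b* promoter had almost the same level in both lists (118.9 and 116.8), and 2 deletion-only intervals in its introns reached 79.9 and 74.3.

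EphA receptors had 39 parent and 51 ΔSRR2–18 intervals, with 17 parent-only and 30 deletion-only (58.8%, 45.2–71.2). *Epha2*, which is widespread in epithelia and early embryos, had 1 parent-only and 9 deletion-only intervals. The strongest of these (chr4:141277916-141278698, 22917 bp upstream) had 2591 reads, a level of 131.8 and a rank in the top 1.43%, the highest of any deletion-only interval at these genes. A neighbour 26658 bp upstream had a level of 73.6, whereas the *Epha2* promoter had a lower level in the ΔSRR2–18 list (33.4) than in the parent list (48.7). *Epha4*, which binds ephrins of both classes, had 9 deletion-only against 4 parent-only intervals. *Epha8* had 6 parent-only intervals against 1, with parent-only levels from 6.93 to 34.1, and its promoter level was 30.7 in parent and 14.0 in ΔSRR2–18 NSPCs. *Epha1*, *Epha3*, *Epha5* and *Epha7* each had more deletion-only intervals by 1 or 2, *Epha10* had 1 parent-only interval and 0 deletion-only ones, and *Epha6* had a single shared interval.

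Among EphB receptors, *Ephb6*, whose product lacks kinase activity, had 6 deletion-only and 0 parent-only intervals, at levels from 6.61 to 26.8. Its promoter was shared, with a level of 76.8 in parent and 94.2 in ΔSRR2–18 NSPCs. *Ephb2* had 4 deletion-only and 2 parent-only intervals, and the one in its first 50 kb at 27233 bp had a level of 102.4 in the ΔSRR2–18 list. *Ephb3* had 4 of each, *Ephb4* 1 deletion-only and 2 parent-only, and *Ephb1* 0 and 2.

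The ephrins varied least, with 18 of 26 parent and 18 of 27 ΔSRR2–18 intervals shared. The 9 deletion-only intervals made up 33.3% (18.6–52.2). *Efna3* and *Efna4*, which are neighbours on chromosome 3, each had 2 parent-only and 0 deletion-only intervals, *Efna1* had 0 and 2, *Efna2* 0 and 1, *Efnb2* 3 and 2 and *Efnb3* 0 and 1. At *Efna5*, a ligand of EphA receptors, 1 and 3 intervals within 50 kb were specific. Over its whole 277134 bp the gene held 2 parent and 25 ΔSRR2–18 intervals, all of them specific to their list. This count was singled out after its values were seen, and among the gene bodies only *Slit3* had a wider gap.

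Class 3 semaphorins had 18 parent-only and 20 deletion-only intervals, with opposite balances at individual genes. *Sema3e*, a repellent of neurons and vessels, had 7 deletion-only and 1 parent-only intervals, and *Sema3c*, also known for its role in the heart outflow tract, had 7 and 3. *Sema3f*, a ligand of neuropilin 2, had 1 deletion-only and 6 parent-only intervals, of which the strongest lay 2749 bp into the gene at a level of 59.1. *Sema3d* had 0 and 3, but its parent-only intervals were weak, at levels from 4.89 to 5.46, and its promoter was near equal (38.6 in parent and 42.1 in ΔSRR2–18 NSPCs). *Sema3a* had 5 and 4, *Sema3b* 0 and 1 and *Sema3g* 0 and 0. Among the receptors of these ligands, *Nrp2* had 7 deletion-only and 5 parent-only intervals, *Nrp1* 3 and 5, *Plxna1* 4 and 5, *Plxna2* 7 and 8 and *Plxna4* 3 and 0. The strongest parent-only interval at any axon guidance gene lay in an intron of *Plxna2*, 9565 bp from the TSS, with 4030 reads and a level of 103.8.

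At promoters, 39 of the 47 genes had an interval in both lists. *Slit1*, *Slit3* and *Efnb3* had one in the ΔSRR2–18 list alone, and no parent interval overlapped the 1 kb around any TSS of these genes. The *Efnb3* interval was of middle strength (327 reads, level 16.6). *Epha10* and *Efna5* counted in the parent list alone, but at both a ΔSRR2–18 interval reached into the promoter with its strongest summit 1597 bp and 1205 bp from the TSS, so no member promoter of the parent list was without overlap. *Epha6*, *Robo4* and *Sema3b* had no promoter summit in either list, although at *Epha6* an interval of each list reached into the 1 kb around the TSS. Of the 39 promoters in both lists, 5 had a higher level in the ΔSRR2–18 list (*Sema3d*, *Ephb6*, *Epha3*, *Unc5d* and *Epha1*) and 34 a lower one. The median log2 ratio of ΔSRR2–18 to parent level over the 44 shared promoter intervals was −0.54, and over all 12602 shared promoter intervals of protein-coding genes it was −0.46. By rank within the list, 16 of the 39 ranked higher in the ΔSRR2–18 list. The largest gaps downward were at *Sema3g* (30.2 and 5.80, log2 ratio −2.38), *Ntn1* (−1.56), *Unc5a* (51.5 and 20.0, −1.36), *Efna2* (50.8 and 20.7, −1.30) and *Dcc* (28.8 and 12.0, −1.26). At *Epha1* the parent level of 11.1 and the ΔSRR2–18 level of 50.7 belong to different intervals, since the latter is a deletion-only interval 955 bp upstream. The shared *Epha1* interval at the TSS had levels of 11.1 and 20.0.

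**Figure D3:**
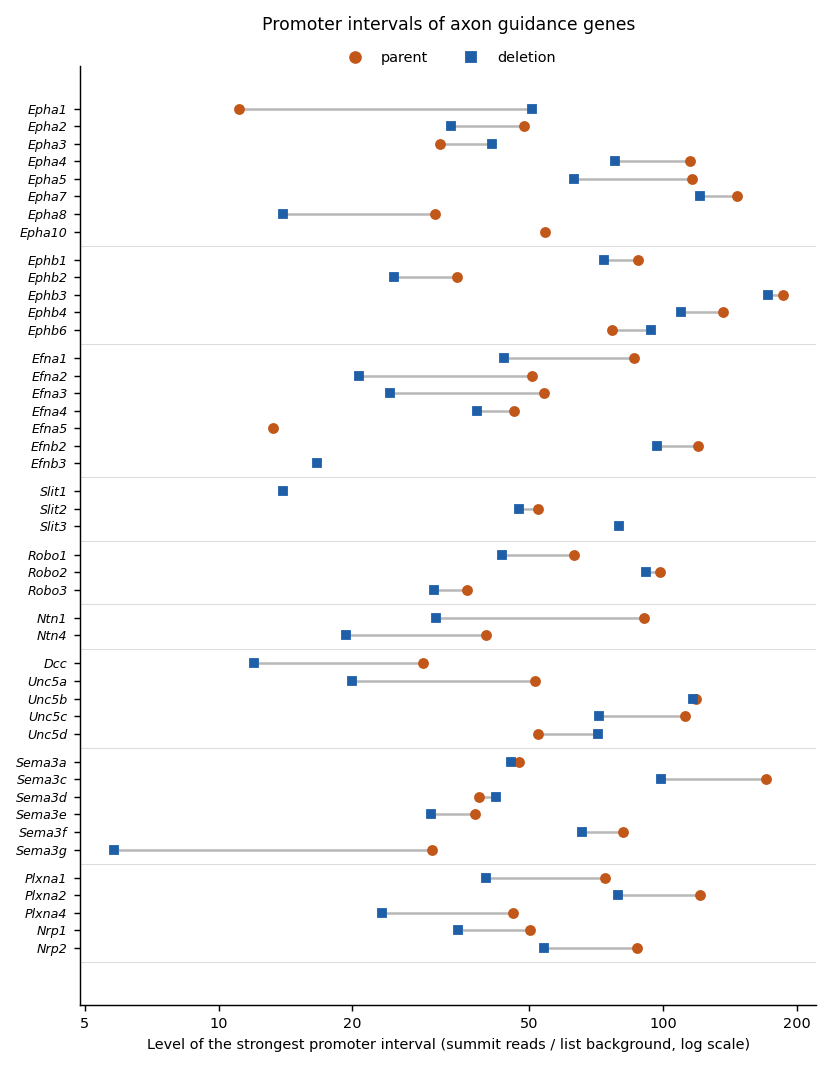
Level of the strongest promoter interval of each gene (horizontal axis, log scale, summit reads over list background) in the parent (orange circles) and the ΔSRR2–18 or deletion list (blue squares), by family. Most squares lie to the left of their circles, *Sema3g* by the widest gap, and *Slit1*, *Slit3* and *Efnb3* have a square only.

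Of the 10 strongest intervals of each list, the promoters of *Ephb3*, *Epha7*, *Unc5b*, *Ephb4* and *Sema3c* and the interval upstream of *Sema3b* stood in both. *Ephb3* led both, with a level of 186.3 in the parent (top 0.685%) and 172.6 in the ΔSRR2–18 list (top 0.419%). In the parent list it was followed by the *Sema3c* promoter (170.9), an interval 3637 bp upstream of *Sema3b* (168.3), a second *Ephb3* start site (152.9), the promoters of *Epha7* (146.5) and *Ephb4* (136.2), a *Plxna1* intron (123.2), and the promoters of *Plxna2* (121.3), *Efnb2* (120.2) and *Unc5b* (118.9). All 10 were shared. The 10 strongest of the ΔSRR2–18 list included 2 deletion-only intervals, those of *Epha2* (131.8) and *Ephb2* (102.4) described above. The others were the promoters of *Ephb3*, *Epha7* (121.0), *Unc5b* (116.8), *Ephb4* (109.6) and *Sema3c* (99.1), a *Plxna2* intron 38870 bp from the TSS (134.9), an interval 18030 bp upstream of *Sema3c* (120.4) and the interval upstream of *Sema3b* (114.5).

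Of the 134 parent intervals paired with an overlapping ΔSRR2–18 interval, 68 ranked higher in the ΔSRR2–18 list by summit reads (50.7%), against 45.6% of all 30232 pairs. By fold enrichment the share was 37.3%, and it was 41.6% of all pairs. The difference between the measures lay at promoters, where 17 of 44 pairs ranked higher by reads but 4 by fold enrichment (9.09%, against 34.6% of all promoter pairs). The levels of pairs outside promoters had a median log2 ratio of 0.04. By reads, fold enrichment and −log10 p alike, 37 pairs ranked higher and 53 lower in the ΔSRR2–18 list. The same count over all 30232 pairs was not made. By −log10 p alone, 50.7% of member pairs ranked higher, against 43.8% of all pairs. The widest moves upward were outside promoters. An interval 32066 bp upstream of *Sema3e* had a level of 5.77 in parent and 76.5 in ΔSRR2–18 NSPCs, from the top 90.4% to the top 7.27%. In an exon of *Efnb2*, 16916 bp from the TSS, the levels were 5.61 and 53.9. An *Epha4* intron (43633 bp) had 8.44 and 68.9, an *Epha2* intron (9280 bp) 10.8 and 60.0, and an interval 38028 bp upstream of *Nrp2* had 12.2 and 45.2, although the summits of that last pair lay 703 bp apart.

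Moves downward were led by *Sema3g*, a ligand known from endothelium, at which all 4 intervals were shared. Its intronic interval, 9292 bp from the TSS, had a level of 48.2 in parent and 7.38 in ΔSRR2–18 NSPCs, from the top 22.5% to the top 89.0%, and its promoter moved from the top 33.5% to the top 96.1%. An interval 23433 bp upstream of *Robo3* had levels of 88.9 and 11.2. A *Sema3e* intron (14077 bp) had 31.3 and 6.66, so that *Sema3e* held both a pair with a strong move upward and one with a strong move downward. The fifth pair lay 32129 bp upstream of *Plxna2*, with levels of 40.3 and 8.60. In these 5 pairs the summits of the lists lay within 61 bp of each other.

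**Figure D4:**
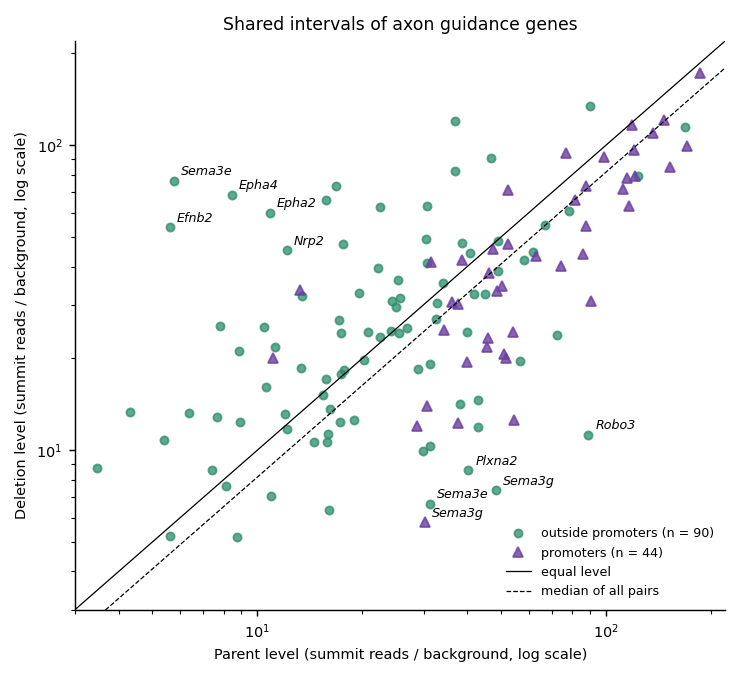
Level of each of the 134 shared intervals in the parent list (horizontal axis) and the ΔSRR2–18 or deletion list (vertical axis), both as summit reads over list background on log scales, with promoters as triangles. The solid line marks equal levels and the dashed line the median of all 30232 pairs, and the 5 widest rank differences in each direction carry gene names.

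Motif matches were counted within 100 bp of the strongest summit, and the same width 500 bp away served as the flank. AP-1, the site of JUN and FOS dimers, matched in 59 of the 163 deletion-only intervals (36.2%, 29.2–43.8), in 4.29% of flanks, and in 3 of the 103 parent-only intervals (2.91%). The deletion-only intervals of all protein-coding genes held it in 42.6%, within the interval of the members. The matches were spread over 28 of the 38 genes with a deletion-only interval. *Nrp2*, *Ntn4*, *Slit2* and *Slit3* had 4 each, and the distal *Slit2* window above shows one. In deletion-only promoter intervals, which are few, *Slit2* and *Epha1* had a match. SOX matched in 14 parent-only intervals (13.6%, 8.27–21.5) at 13 genes, against 10.7% of flanks and 13.5% over all genes, and in 16 deletion-only intervals (9.82%), the same share as in the flanks. The match does not separate members of the SOX family.

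The HOX-PBX consensus matched in 22 deletion-only intervals at 16 genes (13.5%, 9.08–19.6), against 4.91% of flanks and 8.54% over all genes, and in 3 parent-only intervals. *Slit3* and *Sema3c* had 3 each. Its free base matters, because the form with C differs from an AP-1 word by few letters: 9 intervals held the form with C (5.52%, against 5.19% over all genes), 9 the form with T (5.52% against 1.86%), and A and G had 3 each, where an interval can hold more than 1 form. No HOX-PBX match overlapped an AP-1 match in the member intervals, and 5 deletion-only intervals held both. NFI matched in 19 parent-only intervals (18.4%, 12.1–27.0) at 11 genes, 3 each at *Ntn1* and *Epha8*, against 3.88% of flanks and 13.1% over all genes, and in 10 deletion-only intervals (6.13%, against 4.57%). CDX and posterior HOX matched in 12.3% of deletion-only intervals, close to the flank share of 11.0%, and in 1.94% of parent-only ones, against 9.69% and 5.56% over all genes. TEAD matched in 10.4% of deletion-only intervals, 4 of which lay at *Slit3*, and in 7.77% of parent-only ones, against 9.53% and 5.80% over all genes. The shares in deletion-only and parent-only intervals were 7.98% and 13.6% for ZIC (8.45% and 12.9% over all genes) and 1.23% and 3.88% for POU (1.04% and 2.56%). A match describes the sequence of the reference and not occupancy.

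**Figure D5:**
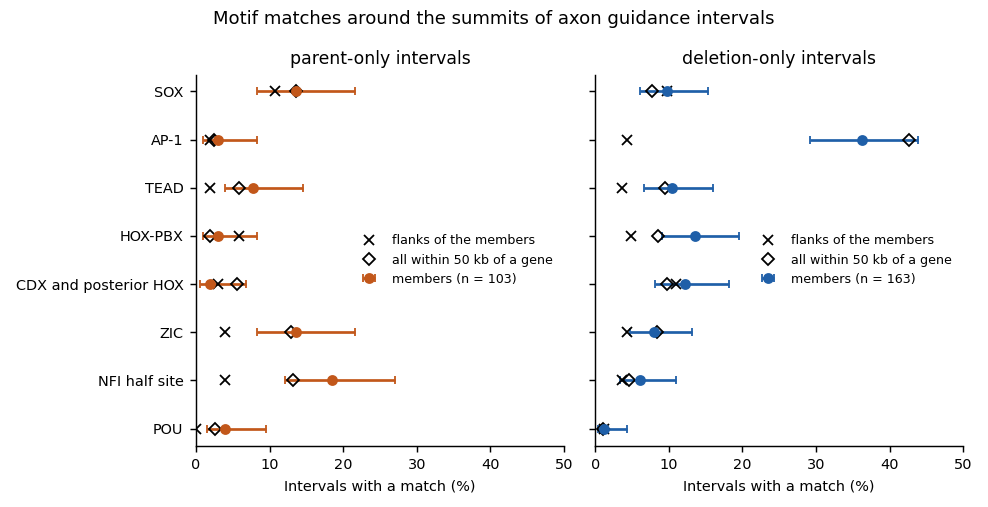
Share of parent-only (left) and deletion-only (right) intervals with an exact motif match within 100 bp of the summit. Filled circles with 95% Wilson intervals are the axon guidance members, crosses their flanks, and open diamonds all intervals of that class within 50 kb of a protein-coding TSS. AP-1 stands at 36.2% in deletion-only members and at 2.91% in parent-only members.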

How the data were processed

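ATAC-seq of 3 parent and 3 ΔSRR2–18 NSPC cultures was processed by the authors with the ENCODE ATAC-seq pipeline. Reads were aligned to mm10, peaks were called with MACS2 and the cultures of each genotype were combined by IDR. Of the 4 deposited lists, the 2 conservative ones were used, and the optimal ones served as an alternative. Each deposited line holds a scaled score from IDR, the ratio of pileup to background at the summit (fold enrichment), its significance as −log10 of p and of q, and the summit position. The q was not used. The lists end at an IDR of 0.05.

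Distinct intervals took the values of the summit with the highest fold enrichment. Reads and background were solved from fold enrichment and −log10 p under the Poisson model of MACS2, and 99.9993% of parent and 100% of ΔSRR2–18 summits gave whole numbers (within 0.05). They are pileup heights on the pooled libraries and not counts of fragments. One allele is Cast, and reads that differ from mm10 may map less often. Genes were those of GENCODE M21 basic. Sequence came from RefSeq GRCm38.p6.

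Alternatives were the optimal lists, an IDR of 0.01, lists of equal length and other overlap, distance, gene and motif window settings. The named genes were the 5 with the largest excess in each direction, those with a promoter interval in 1 list alone, the 10 strongest intervals of each list and the 5 pairs with the largest rank difference each way. The printed *Slit* sequences were chosen after their values were seen. The members and gene lists were chosen with earlier results of these data known. Read recovery, overlap, nearest gene and motif search were tested on simulated data. Python 3.11.15, numpy 2.4.6, pandas 2.3.3 and scipy 1.17.1 were used.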

Additional observations from a re-analysis of the deposited data

How the results depend on the processing

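No paired analysis was possible because each list pools the cultures of a genotype, and for the same reason no culture was left out in turn. Under other settings 181 values were recomputed. Values on all members were judged one by one by size, with no check of the order between the lists: 83 stayed near the main value and 18 moved. Those with overlapping intervals merged could not change, because no intervals of a list overlapped. Of the values on single genes, 61 kept their size and direction, 18 moved and 1 turned.

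With the ΔSRR2–18 list cut to the length of the parent list, the order of the counts turned. By fold enrichment, 145 parent-only (61.2%) stood against 109 deletion-only intervals (54.8%), and by −log10 p 121 (51.1%) against 115 (50.0%). The direction of this change is built in. Deletion-only intervals were lost by the cut, and a parent interval whose ΔSRR2–18 partner was cut counted as parent-only. The shared *Slit2* promoter became parent-only in this way by fold enrichment. Within 10 kb of a TSS there were 120 parent and 130 ΔSRR2–18 member intervals, of which 33 (27.5%) were parent-only and 45 (34.6%) deletion-only. Within 100 kb, 269 (62.9%) were deletion-only, beside 63.1% of all ΔSRR2–18 intervals without a distance limit. The shares over all intervals were not computed at the changed distances and list lengths. These values therefore cannot be set apart from the background. Against the nearest gene of any type, 68 parent-only and 105 deletion-only intervals remained assigned. The number of genes with a promoter interval in the parent list alone was 0 at a promoter distance of 2.5 kb, 1 in the optimal lists and 0 when any overlap with the promoter counted. By fold enrichment, 37.3% of pairs ranked higher in the ΔSRR2–18 list. Within 50 bp of the summit, AP-1 matched in 27.6% of deletion-only and 0.971% of parent-only intervals. *Sema3d* turned, with 2 more deletion-only than parent-only intervals in the optimal lists. At *Epha8* and *Robo2* the difference was 0 within 10 kb.

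*Slit3* had 0 parent intervals under each setting on the conservative lists. Most of these settings could not add a parent interval. The distance of 100 kb and the nearest gene of any type could, and the count was 0 there as well. The deletion-only intervals of *Slit3* numbered 10 and 11 at equal list length by fold enrichment and by −log10 p, 12 at an IDR of 0.01, 14 in the optimal lists, 3 within 10 kb and 22 within 100 kb. *Slit2* had 9 and 7 at equal list length. With the nearest gene of any type it had 4.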

Other observations

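At 33 other ligands and receptors of axon guidance (class 4 to 7 semaphorins, B, C and D plexins, netrin G proteins, RGM and FLRT proteins among them), 121 of 211 parent intervals were parent-only (57.3%) and 89 of 177 ΔSRR2–18 intervals were deletion-only (50.3%), beside 45.0% and 53.0% of all intervals within 50 kb of a protein-coding TSS. Deletion-only intervals were more numerous at 9 of these genes, parent-only ones at 18, and the counts were equal at 6. *Flrt2*, which encodes a ligand of UNC5 receptors, had 3 parent-only and 12 deletion-only intervals. At 23 intracellular partners of these receptors, the counts were 112 of 201 (55.7%) and 124 of 216 (57.4%), with deletion-only intervals more numerous at 12 genes and parent-only ones at 8. *Fyn*, a Src family kinase, had 31 parent-only and 16 deletion-only intervals, the widest gap in that list.

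Over whole gene bodies, the order of the lists was that of the 50 kb around the TSS at some genes and turned at others. *Epha3* held 8 parent and 23 ΔSRR2–18 intervals in its body, *Unc5d* 4 and 14, all specific, and *Unc5c* 14 and 25. *Ephb1* held 15 and 5, *Robo2* 19 and 9 and *Ntn1* 17 and 8. At these genes the order was the same within 50 kb. It turned at *Epha7*, with 4 parent and 6 ΔSRR2–18 intervals within 50 kb but 6 and 2 in its body. *Sema3d*, with 4 and 1 but 13 and 19, turned as well. Among others, so did *Epha4* (8 and 13 but 13 and 12), *Ephb2* (5 and 7 but 17 and 15) and *Nrp1* (8 and 6 but 14 and 21). Just inside the limit of 50 kb lay a parent-only *Nrp2* interval at 49773 bp (level 18.7) and a shared *Slit1* interval at 49508 bp (level 14.5 in the ΔSRR2–18 list). Just outside it lay a shared *Sema3e* interval at 50420 bp (level 11.4 in the parent list) and a deletion-only *Unc5c* interval at 50088 bp (level 7.32).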
